A study of Mus musculus with 12 samples.

Results

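The epithelium of mammary tumours driven by a Wnt1 transgene was compared, on each of 6 two-colour Agilent arrays, with a universal mouse reference RNA (a commercial pool of RNA from mouse cell lines) hybridised to the same array. The 6 arrays titled as tumour cells were taken, of 12 arrays in all; the other 6 carry tumour stroma. All tumours arose in FVB mice carrying MMTV-wnt1, in which the mouse mammary tumour virus promoter drives Wnt1 mainly in mammary epithelium. The mice were either Rarb -/-, lacking retinoic acid receptor beta (3 arrays, called KO 1, KO 3 and KO 4), or Rarb +/+ (3 arrays, called WT 1, WT 2 and WT 3). Epithelium and stroma were separated by laser capture, and total RNA was amplified before labelling. The ages of the mice are not given, and nothing in the labels says that replicates came from separate mice, so p-values measure only the spread between these samples, which may be technical. The question asked here was which genes lay far above or far below the reference on all 6 epithelial arrays.

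Wnt1 is a secreted ligand that stabilises beta-catenin, which then acts with TCF and LEF proteins on target genes. Mammary ducts hold an inner luminal layer and an outer basal or myoepithelial layer, and tumours of MMTV-Wnt1 mice are known to contain cells of both kinds. A ratio to a cell line pool says how a transcript stands against that pool, so a low ratio can belong to a gene that is abundant in both RNAs, and in captured tissue fewer cells of a type and less RNA per cell cannot be told apart.

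Every value below is a log2 ratio of tumour (Cy3) over reference (Cy5), in which 3 means 8-fold. Cy3 was well above background for 38.8% to 46.3% of probes on the 6 arrays and Cy5 for 41.5% to 45.2%. No array had the dyes exchanged, so a dye effect of a gene and its difference from the reference cannot be told apart. The 6 arrays lay on 1 slide, with KO in row 1 and WT in row 2. The number of arrays limits the precision. The Rarb probe did not separate the genotypes (KO -1.13, 1.36 and 0.50, WT -0.76, 0.85 and 0.77), and the sources used here do not place it relative to the deletion, so it checks nothing about the labels.

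The epithelial label was set against marker genes. Of 23 luminal genes measured, 21 were above the reference (limma, adjusted p under 0.05) and 0 below, with a median of 2.44, where 27.1% of all 13423 genes were above, 33.5% were below and the median was -0.04. Of 19 basal genes 13 were above and 0 below, with a median of 2.19. Of 24 fibroblast and collagen genes 4 were above and 13 below, with a median of -1.15 that differed by array (KO -1.07, -1.05 and -2.62, WT -0.91, -0.01 and -2.32), so on WT 2 it was no lower than the -0.04 of all genes. On the stroma arrays the luminal, basal and fibroblast medians were 1.20, 1.53 and 1.27. Lying above the reference therefore does not by itself set epithelium apart from stroma. Of 11 adipocyte genes 2 were above and 1 below (median 0.59, by array -0.37 to 2.04, highest on WT 2). Cfd, the fat cell gene for adipsin, read 6.54, 9.40 and -0.34 in KO and 0.28, 10.65 and 4.64 in WT, so it was highest on WT 2 and KO 3. Genes of other cells were above the reference too: 5 of 6 erythroid genes (median 2.25, by array 1.02 to 4.31), 8 of 14 macrophage genes (0.97, by array 0.33 to 1.69) and 8 of 13 endothelial genes (0.77, by array 0.14 to 1.19). Of the last 3 lists 5, 12 and 7 members were well above background in Cy3 on all 6 arrays and 0 were below it on all 6, and their part in the results was not tested. Cdh1, which encodes E-cadherin, and Esr1, the oestrogen receptor, had no probe that passed the brightness filter.

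Most genes lay close to the reference, a closeness partly set by the loess step, which centres the ratios of each array. Of all genes 75.6% had a mean within 2-fold of the reference. Far from it, 181 genes were at least 8-fold above the reference on every one of the 6 arrays (1.35% of genes) and 77 at least 8-fold below (0.574%). These genes were chosen on the ratios themselves, so their values are a description and the limma calls they all passed add nothing. The lists of 4-fold (322 above, 253 below) and 16-fold genes (94 above, 26 below) also held more high than low ratios. Centring each array on its median in place of loess turned this round, with 133 genes 8-fold above on all 6 arrays and 145 below. Counts on each array ran from 313 to 410 above 8-fold and from 160 to 250 below. The measure of ratios matters: with Agilent's own processed signals 354 genes were 8-fold above and 259 below on all 6 arrays, holding 180 of the 181 and all 77.

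**Figure D1:**
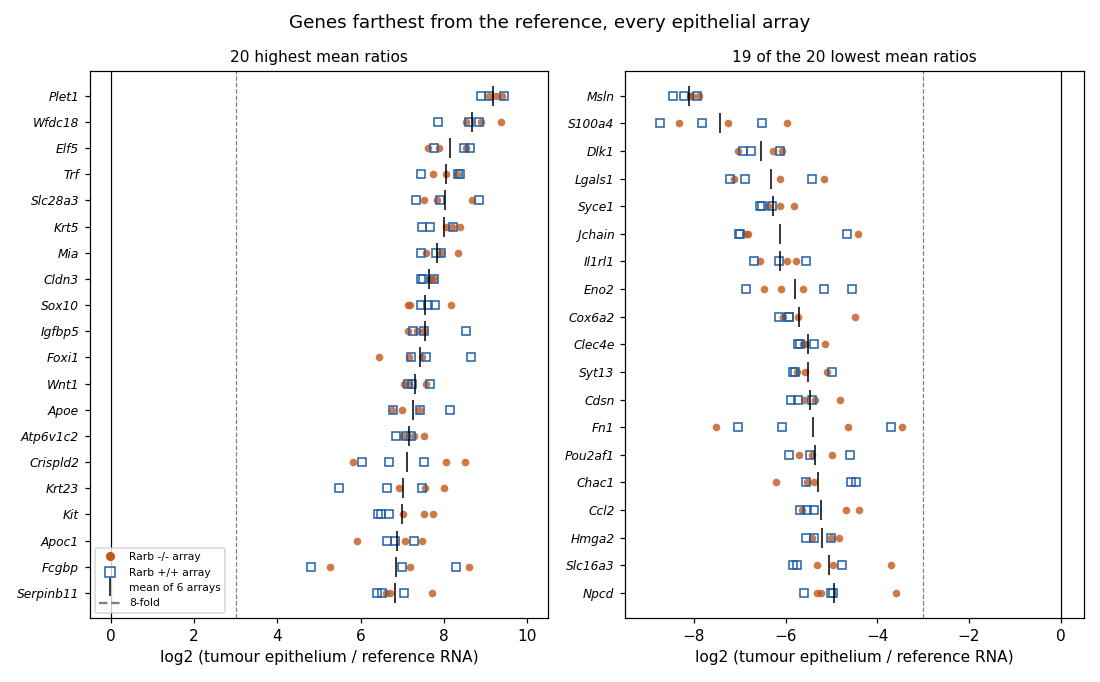
The 20 highest and 19 of the 20 lowest named genes by mean log2 ratio of tumour epithelium over reference (x axis), with 1 symbol per array (KO filled circles, WT open squares), a bar at the mean of the 6 arrays, and dashed lines at 8-fold. Plet1 is highest (8.88 to 9.44) and Msln lowest (-8.45 to -7.88), while Fn1 and Fcgbp show the widest scatter between arrays.

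The highest ratio belonged to Plet1, a cell surface protein of epithelial progenitors. It read 9.40, 9.24 and 9.08 on the KO arrays and 9.44, 8.88 and 9.08 on the WT arrays, a mean 583-fold above the reference (SE 0.10 on the log2 scale). KO and WT overlapped throughout. A second, dimmer Plet1 probe averaged only 0.83, so the size rests on the brighter probe. Several secreted and carrier proteins were among the 20 highest. Wfdc18, a small secreted protein of the whey acidic protein family, ran from 7.85 to 9.36 and was lowest on WT 3. Trf, transferrin, the iron carrier that is also a milk protein, gave 7.75, 8.05 and 8.32 in KO and 8.34, 8.38 and 7.45 in WT. Its second probe averaged 9.14, so both Trf probes were far above the reference. Apoe and Apoc1, lipoprotein components that lie next to each other in the genome, had means of 7.25 and 6.87. Igfbp5, which binds insulin-like growth factors and is known from mammary involution, averaged 7.55, with WT 1 highest at 8.53.

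Transcription factors listed for mammary and other epithelia were mostly above the reference. The list was written with earlier results of these data known, so its counts are partly set by the choice. Of 36 measured, 29 were above the reference, 2 were below, and 10 were 8-fold above on all 6 arrays, with a median of 2.19. Of all genes 27.1% were above, 33.5% below and 1.35% 8-fold above on all 6. Elf5, the ETS factor of luminal alveolar cells, read 8.54, 7.89 and 7.62 in KO and 8.62, 7.77 and 8.48 in WT. Its reference signal was never well above background, so the difference is given as at least 211-fold (bound set by the dimmest detectable signal in that channel). Sox10, known from neural crest and from mammary progenitors, read 7.17, 7.13 and 8.17 in KO and 7.78, 7.46 and 7.61 in WT. Foxi1, which directs ion-transporting cells of kidney and inner ear, ranged more widely, from 6.44 on KO 4 to 8.64 on WT 1. Atp6v1c2, a subunit of the proton pump found in such cells, had a mean of 7.16. Tfap2c, an AP-2 factor of luminal cells, averaged 5.92. The homeobox gene Irx3 averaged 5.79, and the 3 neighbouring genes Irx1, Irx2 and Irx4 averaged 4.53, 4.29 and 4.62, each at least 4.06 on every array. Id4 (4.85, at least 28.5-fold) and Grhl2 (4.56), an activator of epithelial adhesion genes, followed. Msx1 (-0.67) was among the factors below the reference.

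The sequences just upstream of Elf5, Foxi1, Krt5, Cldn3 and S100a4 are shown because these genes mark the extremes: regulators, a basal keratin, a luminal junction protein and a fibroblast-associated gene. Each is the 250 bases before a RefSeq start site (GRCm38.p6), read 5′ to 3′ on the gene's strand: Elf5 at its downstream start (chr2:103423818-103424067, plus strand), Foxi1 (chr11:34208090-34208339, minus), Krt5 (chr15:101712906-101713155, minus), Cldn3 (chr5:134985964-134986213, plus) and S100a4 (chr3:90603520-90603769, plus). Capitals mark matches to any of 5 motifs searched on both strands.
Elf5: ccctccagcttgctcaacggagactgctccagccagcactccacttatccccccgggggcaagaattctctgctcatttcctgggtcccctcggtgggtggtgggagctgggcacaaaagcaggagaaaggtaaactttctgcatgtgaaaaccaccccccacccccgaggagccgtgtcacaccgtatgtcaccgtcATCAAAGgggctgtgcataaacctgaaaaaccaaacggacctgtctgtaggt
Foxi1: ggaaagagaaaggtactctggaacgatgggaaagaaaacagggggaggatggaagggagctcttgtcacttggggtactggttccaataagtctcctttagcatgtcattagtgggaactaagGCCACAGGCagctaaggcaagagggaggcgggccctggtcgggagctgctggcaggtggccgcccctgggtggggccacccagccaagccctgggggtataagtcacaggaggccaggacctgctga
Krt5: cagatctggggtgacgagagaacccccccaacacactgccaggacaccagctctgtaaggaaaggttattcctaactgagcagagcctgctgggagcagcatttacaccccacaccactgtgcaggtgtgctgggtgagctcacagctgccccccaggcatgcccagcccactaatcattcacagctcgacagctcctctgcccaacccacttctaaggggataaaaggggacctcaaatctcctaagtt
Cldn3: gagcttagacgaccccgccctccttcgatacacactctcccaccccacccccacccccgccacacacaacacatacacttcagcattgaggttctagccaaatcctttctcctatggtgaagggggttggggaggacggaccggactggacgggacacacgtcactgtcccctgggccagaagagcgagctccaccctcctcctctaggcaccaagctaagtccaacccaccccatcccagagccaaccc
S100a4: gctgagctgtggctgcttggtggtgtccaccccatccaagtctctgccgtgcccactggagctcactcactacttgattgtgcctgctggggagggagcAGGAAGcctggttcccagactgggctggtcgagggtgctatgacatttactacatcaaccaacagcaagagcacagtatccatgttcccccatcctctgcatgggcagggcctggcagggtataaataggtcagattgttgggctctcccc
The Elf5 window holds 1 match to the TCF/LEF letters CTTTGAT on the opposite strand, Foxi1 1 match to the AP-2 letters GCCNNNGGC, and S100a4 1 match to the ETS letters AGGAAG. Krt5 and Cldn3 have no match, nor has the upstream start of Elf5 (chr2:103411848-103412097, plus). The table held 140 of the 181 genes far above and 56 of the 77 far below. AP-2 letters occurred in 21.2% of the 193 promoters of the high genes, 19.1% of the 68 of the low genes and 13.7% of all 32851, where the median GC content was 56.4%, 55.8% and 52.4%. TCF/LEF letters occurred in 4.66%, 1.47% and 3.21% (9, 1 and 1053 promoters), and ETS letters in 29%, 30.9% and 29.5%. The SOX letters ACAAAG (14%, 14.7% and 16.5%) and the FOX letters GTAAACA (1.04%, 2.94% and 3.17%) were no more common upstream of the high genes than elsewhere. These matches describe letters in the windows; no binding was measured.

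Wnt1 itself was 158-fold above the reference. The KO arrays read 7.05, 7.16 and 7.57 and the WT arrays 7.67, 7.24 and 7.14, a narrow range in which the genotypes overlapped (SD 0.25 over 6 arrays). A second Wnt1 probe averaged 1.78, and the sources used here do not say which probe matches the transgene. Of the 26 Wnt pathway genes measured, Wnt1 included, 18 were above and 3 below, with a median of 1.22. The inhibitor Wif1 averaged 5.80 (at least 40.3-fold) and Rspo1, a secreted enhancer of Wnt receptors, averaged 5.02 (at least 23.6-fold). The feedback inhibitors Nkd2 (3.65), Rnf43 (2.69), Nkd1 (2.01) and Notum (1.19) were above the reference. The target Axin2 (-0.36) did not pass the test, nor did Myc (-0.13), Lgr5 (1.36) or Ctnnb1 (0.38), which encodes beta-catenin. Fzd2, a receptor, was below at -1.57. Among 11 Wnt ligands measured, 4 were above and 4 below, beside 27.1% and 33.5% of all genes. Wnt5b, a ligand known for signalling without beta-catenin, read 6.34, 6.14 and 6.68 in KO and 6.61, 6.70 and 6.60 in WT. The ligands Wnt4 (-2.10) and Wnt10a (-3.38) lay below, and the median of the 11 was 0.06.

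Luminal and junction genes were mostly above the reference, with scatter that differed from gene to gene. Cldn3, a tight junction claudin, read 7.68, 7.66 and 7.77 in KO and 7.44, 7.50 and 7.77 in WT, among the 5 smallest spreads of all far genes (SD 0.14). Its reference channel was well above background on only 2 arrays. Kit, a receptor of luminal progenitors, averaged 6.98 (at least 88.3-fold), and Prom1 5.99 (at least 46.3-fold). Prlr, the prolactin receptor, averaged 4.91 but ranged from 3.40 to 6.49. A second, dimmer Prlr probe averaged 0.34. All 20 junction genes measured were above the reference, from Cldn23 at 0.28 to Cldn3, and Cldn8 (4.66), Tjp3 (3.95) and Marveld3 (3.67) were 8-fold above on all 6 arrays. A second Marveld3 probe averaged 1.60. The luminal keratin Krt8 averaged 3.37 and Krt18 1.36. Epcam, an epithelial adhesion molecule, stood at 0.77. Of the luminal list, Elf3 (0.06) and Esrp1 (-0.01) did not pass. Esrp1 belongs to a set of 309 genes whose ratios moved together and were highest on WT 3, given among the other observations.

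Basal genes were led by Krt5, the basal keratin, at 8.04, 8.19 and 8.39 in KO and 7.66, 8.21 and 7.47 in WT. Its dimmer second probe averaged 1.08. Krt17 (4.88, at least 25.5-fold) and Col17a1 (4.59), a hemidesmosome collagen, were also 8-fold above on all 6. The reference channel for Col17a1 was well above background on only 2 arrays. Krt14, the partner of Krt5, was far above on 5 arrays and 1.2 on WT 3 (KO 3.5, 7.4 and 3.5; WT 5.5, 7.2 and 1.2), and its mean of 4.72 passed the test. Oxtr, the oxytocin receptor of contractile cells, averaged 4.62. The contractile genes Acta2 (0.50) and Tagln (0.26) and the basal regulator Trp63 (-0.24) did not pass. Of 16 squamous and hair follicle genes 8 were above and 2 below, beside 27.1% and 33.5% of all genes. Krt23, an epithelial keratin, led them with 7.55, 8.01 and 6.91 in KO and 5.48, 6.64 and 7.46 in WT, and Krt71, which lies beside Krt5, averaged 4.37. The reference channel for Krt71 was well above background on only 1 array.

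Milk genes were above the reference but differed greatly from array to array. Of 18 measured, 14 were above and 1 below (Spp1, -1.53), with a median of 3.11, and only Cel, a milk lipase (6.67), and Lcn2, an iron-trapping defence protein (5.15), passed 8-fold on all 6. Csn1s1, a casein, read 9.0, 6.1 and 1.3 in KO and 10.2, 3.8 and 9.4 in WT. Csn2, beta-casein, read 4.8, 2.0 and -0.1 in KO and 9.4, 0.6 and 7.4 in WT. Wap, whey acidic protein, read 5.1, 2.5 and 2.1 in KO and 9.0, 4.0 and 6.5 in WT. All 3 were highest on WT 1 and lowest on KO 4, and the genotypes overlapped. Secreted defence genes were 14 of 18 above and 2 below, with a median of 2.81. They included Chil1 (6.55), a chitinase-like protein, and Hp, haptoglobin (6.38), while Saa3 (-2.12) and Slpi (-3.32) lay below.

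Retinoid genes were mixed, with 8 of 19 above, 4 below and a median of 0.36. For this and the next lists, 27.1% of all genes were above the reference and 33.5% below. Crabp2, which carries retinoic acid to its receptors, averaged 4.14 and was 8-fold above on all 6, while its relative Crabp1 lay at -2.93. Aldh1a3, which makes retinoic acid, averaged 3.35. The receptors Rara (-0.74) and Rarg (-0.99) were below, and Rarb (mean 0.26, adjusted p = 0.553) did not pass. Among ErbB genes the receptor Erbb2 was above (0.53) and the ligands Ereg (-3.07), Hbegf (-2.53), Nrg1 (-2.08) and Egf (-0.45) were below. Erbb2 lost its call without KO 1, KO 3, WT 1 or WT 2 (0.41 to 0.53) and under median centring (0.26). Hbegf, which stood at 2.20 on WT 3 alone, lost its call without any 1 of the other 5 arrays (-2.67 to -2.03). The Notch pathway had 8 of 16 above, led by the ligand Dll1 (2.72) and the target Hey1 (2.63), and 2 below, Mfng (-1.36) and Notch2 (-0.56).

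**Figure D2:**
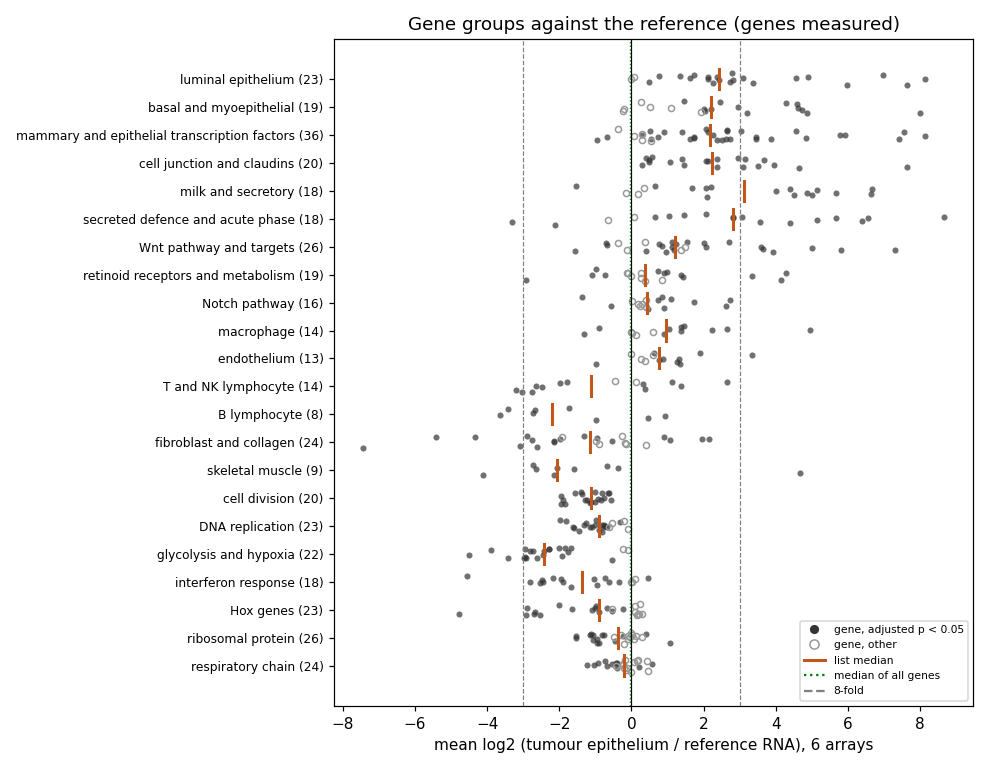
Mean log2 ratio of tumour epithelium over reference (x axis) for each measured member of 22 gene lists (filled where limma's adjusted p is under 0.05, open otherwise), with an orange bar at each list's median and a green dotted line at the median of all 13423 genes (-0.04) and dashed lines at 8-fold. Milk, secreted defence, luminal, junction, basal and epithelial transcription factor lists lie to the right, and glycolysis and hypoxia lies farthest to the left (median -2.43). Not all lists are drawn: the erythroid list (median 2.25), for example, is left out.

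Among the low genes Msln came first. This gene encodes mesothelin, a surface protein of mesothelium and many tumour lines, and read -8.03, -8.09 and -7.88 in KO and -8.22, -7.92 and -8.45 in WT. S100a4, a calcium-binding protein of fibroblasts and motile cells, read -7.25, -5.96 and -8.32 in KO and -7.82, -6.52 and -8.75 in WT. Its second probe averaged -6.86. Lgals1, galectin-1, ran in the same order of arrays, from -7.22 on WT 3 to -5.16 on KO 3. Fn1, fibronectin, showed the largest spread of all far genes: -4.64, -3.46 and -7.52 in KO and -6.08, -3.70 and -7.05 in WT (SD 1.72). All 3 of these were closest to the reference on KO 3 and WT 2. Dlk1, an imprinted fetal gene, averaged -6.54, but its second probe averaged -1.42. Hmga2, a chromatin protein of embryonic and transformed cells, read -5.42, -5.02 and -4.83 in KO and -5.38, -5.01 and -5.55 in WT. Its tumour channel was well above background on only 1 array. A second Hmga2 probe averaged -1.55.

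The other low genes are known from many tissues. Lymphoid and myeloid genes were Jchain, the immunoglobulin joining chain (-6.13, from -7.03 to -4.42), Pou2af1, a B cell coactivator (-5.36), Il1rl1, the interleukin-33 receptor (-6.11), Clec4e, a myeloid lectin (-5.52, at least 38.2-fold), and its neighbour Clec4d (-4.79). For Jchain and for Il1rl1 the tumour channel was well above background on only 2 arrays. The chemokine Ccl2 averaged -5.22. Neural genes were Eno2, neuronal enolase (-5.79), and Syt13 (-5.51, at least 38.8-fold). They do not stand for neural genes at large: of 11 nerve and Schwann cell genes measured, 5 were above the reference and 5 below (median -0.39). Syce1 of the meiotic synaptonemal complex (-6.28, at least 65.3-fold) and the neighbouring close relatives Tex19.1 (-3.43) and Tex19.2 (-3.38) are germ line genes. Of 16 embryonic and germ line genes measured, Dlk1 and Hmga2 included, 2 were above the reference and 7 below (median -0.42). Cox6a2, a muscle form of a respiratory subunit (-5.72), and Tnnt1, a slow muscle troponin (-4.10), are muscle genes, and the homeobox gene Hoxc6 averaged -4.78. For 18 of the 77 low genes the tumour channel was dim (not well above background) on all 6 arrays, for 31 on some and for 28 on none. For the high genes the reference channel was dim on all 6 arrays for 40 of 181, on some for 27 and on none for 114.

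Other gene groups had medians below the reference. Beside their counts, 33.5% of all genes were below and 27.1% above. Of 22 glycolysis and hypoxia genes 20 were below and 0 above, with a median of -2.43. Bnip3, a mitophagy receptor induced by hypoxia (-4.50), and Car9, carbonic anhydrase 9 (-3.90), were 8-fold below on all 6. Other Bnip3 probes averaged -4.60 and -1.96. The glycolytic enzymes Pgk1 (-3.43), Aldoa (-2.97), Gapdh (-2.93) and Ldha (-2.41) were below as well, as were Vegfa (-2.94) and the lactate carrier Slc16a3 (-5.06). All 20 cell division genes were below, from Kif11 at -0.56 to Tpx2 at -1.97, as were 19 of 23 DNA replication genes, with medians of -1.13 and -0.88. By array the cell division median was -0.50, -0.87 and -0.96 in KO and -2.06, -1.84 and -0.86 in WT, and that of DNA replication ran from -0.45 on KO 1 and WT 3 to -1.88 on WT 1. Interferon response genes were 14 of 18 below and 1 above, led by Usp18 (-4.57), which removes ISG15 from proteins. Immediate early genes were 11 of 15 below and 1 above, with Fosb (-2.88) and Egr1 (-2.72) among the low ones. Of 23 Hox genes 15 were below and 0 above. B cell genes were 6 of 8 below and 2 above, T and NK genes 7 of 14 below and 5 above, and muscle genes 8 of 9 below with only Mb, myoglobin, above (4.67). The reference channel for Mb was well above background on only 1 array.

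Ribosomal protein and respiratory chain genes lay nearer to the reference, with medians of -0.37 and -0.21. Of 26 ribosomal genes 13 were below and 2 above, and of 24 respiratory genes 9 were below and 2 above. These depend on centring: with each array centred on its median in place of loess, 25 ribosomal and 21 respiratory genes were below and 0 above. That centring moved the median of all genes to -0.44 and the split of all calls from 27.1% above and 33.5% below to 15.9% and 54%. The medians of antigen presentation (0.37), liver (0.28) and steroidogenic genes (0.18) changed sign under it (-0.03, -0.01 and -0.26). The authors' value table gave 24.6% above and 38.6% below.

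The median SD over 6 arrays was 0.41 for the 181 and 0.33 for the 77, beside 0.33 for all genes, but asking for 8-fold on every array leaves out genes with a stray array, so this is no comparison. The steadiest ratios were those of Tmem51 (4.50 to 4.78, SD 0.11), Tmem179 (-3.40 to -3.12), Efs (3.82 to 4.18), Cldn3 and Smagp (4.53 to 4.93). For Tmem179 the tumour channel was dim on all 6 arrays (at least 9.19-fold below the reference). For Cldn3 the reference channel was well above background on only 2 arrays. The spread of these 2 ratios is therefore no measure of steady expression. After Fn1 the most variable were Maob, a monoamine oxidase (3.54 to 7.60), Fcgbp, a mucus protein (5.27, 8.59 and 7.19 in KO; 8.29, 6.99 and 4.82 in WT), Cygb, cytoglobin (3.14 to 6.86), and Krt79 (4.56 to 8.05). WT 3 agreed least with the others, with a mean correlation of 0.793 over genes with the other 5 arrays, and 17 genes were 8-fold above on those 5 but not on WT 3. The edge of the rule is narrow. Just inside it were Ppfibp2, Fam20a and Nhsl1 (means 3.74, 3.54 and 3.54) and, below, Tmem45a, Akr1b8 and Glod5 (means -3.34, -3.61 and -3.59). Bricd5, Bcl2l14 and Elapor1 on the high side and Cpb2, Steap2 and Apol9b on the low side fell just short on their nearest array. Second probes, present for 38 of the 181 genes, had the same sign on all 6 arrays for 36 of 43 probes and passed 8-fold for 12. For the low genes 15 of 16 second probes had the same sign and 6 passed, and 1 Hmga1 probe averaged 0.27.

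**Figure D3:**
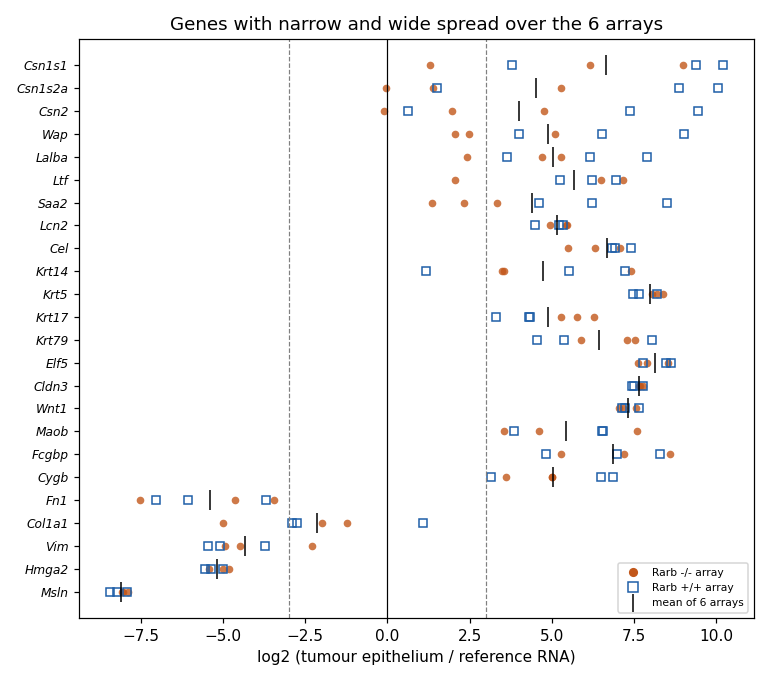
Log2 ratio of tumour epithelium over reference on each of the 6 arrays (KO filled, WT open) for 24 genes chosen after their values were seen for narrow or wide spread, with a bar at the mean and dashed lines at 8-fold. The caseins, Wap, Krt14 and Fn1 spread over several log2 units (Csn1s1 1.3 to 10.2), while Cldn3, Wnt1 and Msln stay within a range of less than 1.

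Stroma of the same tumours, run against the same reference in the same dye, gave a second set of ratios for the far genes. A dye effect that is equal on all arrays leaves this difference, but the stroma arrays lay on another slide, so slide and compartment cannot be told apart. Of all genes, 32 were higher in epithelium (0.238%) and 126 lower (0.939%) by limma with tumour as a block, and with a genotype term in the fit, added after seeing the data, 910 were higher (6.78%) and 1172 lower (8.73%). Leaving out a tumour took out both its epithelium and its stroma array. Without tumour KO 1, KO 3, KO 4 or WT 3 the blocked fit made 0 calls, without WT 1 399 and without WT 2 821. Of the 181 high genes 6 were higher in epithelium and 1 lower (130 and 7 with the genotype term), and of the 77 low genes 12 were lower and 0 higher (40 and 1). Since these genes were chosen for extreme values in epithelium, the side of the difference is partly set by the choice. In all 6 tumours, 82 of the 181 were higher in epithelium than in stroma (6.89% of all genes) and 46 of the 77 lower (8.9%). However, 55 of the 181 were 8-fold above the reference on all 6 stroma arrays (83 of all 13423 genes) and 0 had the opposite sign there. On all 3 KO stroma arrays 58 of the 181 were 8-fold above (173 of all 13423 genes), and on all 3 WT stroma arrays 141. Of the 77 low genes 24 were 8-fold below on all 3 KO stroma arrays and 41 on all 3 WT stroma arrays. This difference by genotype was not tested.

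Among high genes with a descriptive name, the largest differences from stroma were in Slc28a3, a nucleoside transporter (2.45, SE 0.61), and Lama1, a laminin chain (2.34, SE 0.40), followed by Cldn8 (2.32), Prlr (2.32), Wnt1 (2.30) and Cldn3 (2.27), each higher in epithelium in all 6 tumours. Lama1 (adjusted p = 0.047), Rspo1 (2.26, adjusted p = 0.044) and Nat8 (2.25, adjusted p = 0.044) passed limma's blocked fit. Wnt1 in stroma ran from 2.90 to 7.20, and its difference had an adjusted p of 0.088 in limma's blocked fit and 0.0031 with the genotype term. Krt5 did not follow this pattern: its mean was 8.05 in stroma and 7.99 in epithelium. Trf (8.11 and 8.05) was as level, and Apoe (8.26 and 7.25) and Cygb (7.39 and 5.02) had higher means in stroma, as had the lipocalin Apod (6.28 and 5.58), the 1 high gene that was lower in epithelium by the blocked fit. On the low side, Fn1 lay 4.46 lower in epithelium (SE 0.99, lower in 5 of 6 tumours) than in stroma, where its mean was -0.95, but did not pass limma (adjusted p = 0.063). S100a4 (difference -3.41, SE 0.48, adjusted p = 0.04) and Ccl2 (-2.82, SE 0.31, adjusted p = 0.028) passed limma's blocked fit and were lower in 6 of 6 tumours.

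**Figure D4:**
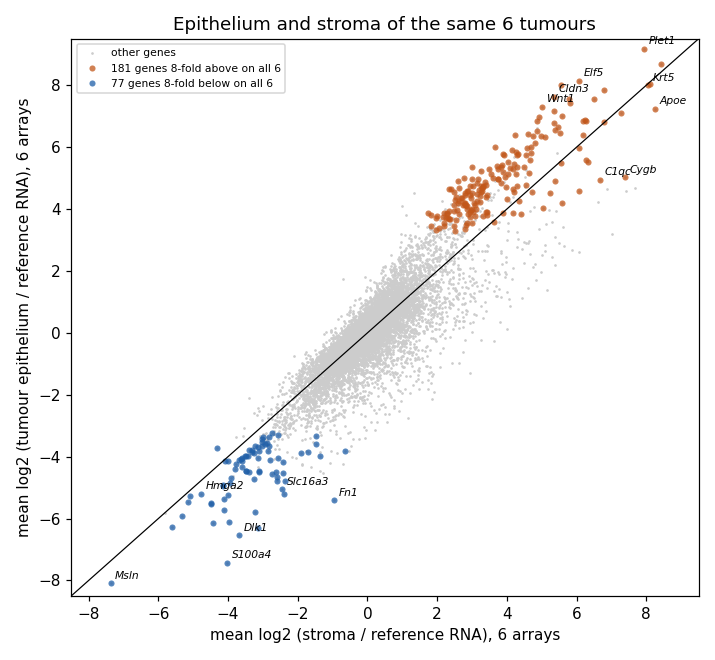
Mean log2 ratio over reference in epithelium (y axis, 6 arrays) against stroma (x axis, 6 arrays) for all genes kept, with the 181 genes far above and the 77 far below the reference in epithelium coloured and a diagonal line of equal values. Most coloured points lie nearer to 0 in stroma, while Krt5 and Trf lie almost on the diagonal and Apoe and Cygb below it, with higher means in stroma.

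No gene differed between the genotypes past the test. Between KO and WT epithelium limma called 0 genes of 13423 (0%), with 929 at an unadjusted p under 0.05, and a fit of all 12 arrays called 1 (Tspan1). The smallest adjusted p among the far genes was 0.712. The median size of the difference was 0.264 for the 181 high genes and 0.227 for all genes. KO and WT ranges did not overlap for 26 of the 181 and 8 of the 77, where 14% of all genes had ranges that did not overlap. For Wnt1 the difference was -0.09 (SE 0.23) and for Krt5 0.43 (SE 0.24). With genotype following the row of the slide, the 2 cannot be told apart.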

How the data were processed

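RNA of laser-captured tumour epithelium (Cy3) and universal mouse reference RNA (Cy5) was read on 2-colour Agilent arrays with Feature Extraction 10.7.3.1, per the file headers. The deposited scanner files give median signal and local background intensity for each spot, flags and Agilent's log10 ratio (Cy5 over Cy3), as their headers name them. The authors' value table is on a log2 scale; how it was made is not stated in the labels, and its 6 epithelial columns ran as reference over sample when compared with the scanner values (r -0.953 to -0.936 over genes, which are not independent replicates), with medians of 0.0315, 0.0228 and 0.0343 (KO) and 0.00602, -0.00461 and -0.0350 (WT). Its other 6 per-sample columns were not used.

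Here intensities were corrected with normexp (offset 50, which compresses high ratios) and loess within each array, control spots at weight 0, in limma 3.58.1 (R 4.3.3). Outlier spots were left out (211 on WT 3, at most 7 on the other epithelial arrays). The filter kept probes that were well above background in Cy3 or Cy5 on 3 or more of the 6 arrays. Probes were named by unversioned accession through a RefSeq table (GRCm38.p6; 27235 of 55681 named), and each gene was represented by its brightest kept probe, leaving 13423 of 20660 genes; 70 of them lacked a value on at least 1 epithelial array, which the fit dropped. limma (lmFit, eBayes, Benjamini-Hochberg, threshold 0.05) tested the mean of the KO and WT means against 0, KO minus WT, and epithelium minus stroma with tumour as a block. Bounds ("at least") set the bright channel against the dimmest detectable signal, per channel after loess and Aquantile normalization. The test was tried on simulated data. Genes named are Wnt1, Rarb, the 20 highest and lowest, the leading members of each list, the extremes of spread, the edges of the rule and the largest differences from stroma; further list members were named after their values were seen. The members and lists were chosen with earlier results of these data known. Alternatives tried were other signals, centring, offset, filters, blocks and leaving out arrays. Results for some genes under the naming rule are not reported here.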

Additional observations from a re-analysis of the deposited data

Results flagged for a closer look

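Among 149 named genes, each tested within the 6 epithelial arrays for a sample far from the others, 8 were singled out; chance gives about 1 in 20. Igfbp5 was highest on WT 1 (8.53, the others 7.13 to 7.52). Cox6a2 stood apart on KO 1 (-4.49, the others -6.15 to -5.74) and Npcd on KO 3 (-3.6, the others -5.61 to -4.96). Hbegf lay at 2.2 on WT 3 and between -3.79 and -2.89 elsewhere, so its mean below the reference rests on the other 5 arrays. Rpl8 was lowest on WT 3 (-1.64, the others -1.11 to -0.84). Ms4a1, the B cell antigen CD20, was nearest to the reference on WT 2 (-2.58, the others -4.02 to -3.65), as was Fdx1 (0.26, the others 0.53 to 0.66). Car9 stood at -3.18 on KO 4 and from -4.26 to -3.89 elsewhere. No explanation was tested for any of these.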

How the results depend on the processing

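Against the reference 8134 genes were called, 3641 above and 4493 below; median centring gave 2135 and 7244, the WT arrays alone 5148 and a test against 2-fold (limma treat) 1651. The 181 and 77 far genes became 354 and 259 with Agilent's processed signals (180 and 77 shared), 306 and 227 in the authors' value table (169 and 77 shared), 114 and 28 with both channels above background on all 6 arrays, and 133 and 145 with median centring. At 4-fold they numbered 322 and 253, at 16-fold 94 and 26. The 158 calls between epithelium and stroma became 31 with median centring, 278 with offset 16, 81 with no filter and 83 with both channels above background. They ranged from 0 to 821 as 1 tumour (both its arrays) was left out. Fdx1 reversed under median centring (-0.2622, adjusted p 0.09 by limma). Of the named genes' values, 2828 kept direction and call and 100, in 28 genes, lost the call.

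Pairing epithelium with stroma of the same tumour rests on the titles; deviations of the pairs from their group means correlated at 0.0919, 0.297 and 0.235 for KO 1, 3 and 4 and 0.454, 0.28 and 0.254 for WT 1, 2 and 3. Without the replicate block 633 genes were called, with it as a random block 1357, and with a genotype term, added after seeing the data, 2082. Numbers shared across genotypes gave values of opposite sign (0.301 for KO 1 with WT 1, -0.302 for KO 3 with WT 3). The first exceeds every same-tumour value except the 0.454 of WT 1, so these correlations do not by themselves establish the pairing by tumour. A block of the shared numbers gave 0 calls between KO and WT, as without it, and all 12 arrays gave 1.

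Dim channels limit 40 high and 18 low genes to bounds. No dye-swapped array was analysed here, so dye bias was not measured, and 6 arrays on 1 slide leave slide effects unmeasured.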

Other observations

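After the values were seen, a set of genes was noticed whose ratios moved together over the 6 epithelial arrays, so it carries no test. Of 1352 genes with an SD over 0.8, 309 correlated at over 0.95 with the mean profile of Esrp1, Hoxa7, Hoxc10, Notch1 and Zfp42, and 0 at under -0.95. Their median log2 ratio was -1.40, -0.70 and 0.10 on KO 1, 3 and 4 and -0.56, 0.22 and 2.33 on WT 1, 2 and 3. The median Cy3 intensity of their probes was 85644 on WT 3 and 1592 to 3094 on the other 5, against 75 to 93 over all probes; the median Cy5 intensity was 20317 on WT 3 and 5116 to 10024 on the others. On the stroma arrays their median Cy3 intensity was 1013 to 4864. None of the 309 was 8-fold from the reference on all 6 arrays, and limma called 10 against the reference (27 at an unadjusted p under 0.05). The set holds 11 members of the lists used here, among them the splicing factor Esrp1, the receptor Notch1, the ligand Wnt10b and the homeobox genes Hoxa7, Hoxc5 and Hoxc10. Its part in the values of those lists was not tested.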
